A study of Mus musculus with 24 samples.

Results

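The 8 genes Slc2a2, G6pc2, Mlxipl, Kcnj11, Abcc8, Cacna1c, Cacna1d and Trpm5, which act in glucose sensing and in the electrical step that follows it, were taken by symbol from a table of 40173 mouse genes. All 8 passed the filter on low counts, as did 23630 genes in all. The study sorted eGFP-positive cells from the mouse pancreas at E15.5 and measured their RNA, in a line in which eGFP replaces the coding region of Ngn3 (Neurog3), the factor that starts endocrine differentiation. Ngn3eGFP/+ dams, 6 weeks old, were put on 1 of 3 foods, a normal diet (ND), one high in fat (HFD) or one low in protein (LPD), 2 weeks ahead of mating with Ngn3eGFP/+ sires kept on the control diet, and stayed on it until collection, so every embryo sorted carried at least one eGFP allele. Male and female embryos were pooled. The groups were 3 libraries titled control and 4 titled mutant on ND, 3 and 3 on HFD, and 4 and 4 on LPD, with 1 control and 1 mutant hypothalamic library beside them.

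The labels disagree on the genotype. In the genotype field, control titles go with Ngn3eGFP/eGFP and mutant titles with Ngn3eGFP/+, whereas the design text describes the eGFP-positive cells of Ngn3eGFP/eGFP embryos as progenitors that have not become islet progenitors and those of Ngn3eGFP/+ embryos as committed endocrine cells. Neurog3 itself went with the titles: it stood at 98.95 to 276 CPM (counts scaled to the library size) of the library total in the 10 titled control libraries and at 6.13 to 23.2 in the 11 titled mutant libraries. The groups are therefore called by their titles, and every direction below is that of the library titled mutant against the library titled control.

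In a mature beta cell, glucose enters through the transporter GLUT2 (Slc2a2) and its breakdown raises ATP, which closes the ATP-sensitive potassium (KATP) channel, built of the pore Kir6.2 (Kcnj11) and the sulfonylurea receptor SUR1 (Abcc8). The membrane then depolarises, with TRPM5 (Trpm5) as a calcium-activated cation channel that adds to it, and L-type calcium channels (pore subunits Cacna1c and Cacna1d) let in the calcium that triggers insulin release. G6pc2 is an islet glucose-6-phosphatase that turns glucose-6-phosphate back into glucose, and Mlxipl encodes ChREBP, a transcription factor that responds to glucose metabolites.

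The genes lie on 6 chromosomes in GRCm38.p6, by the coordinates of the deposited table. Slc2a2 (ENSMUSG00000027690.13) is at chr3:28697903-28731359, G6pc2 (ENSMUSG00000005232.11) at chr2:69211073-69227841 and Mlxipl (ENSMUSG00000005373.13) at chr5:135089890-135138382. Cacna1c (ENSMUSG00000051331.16) is at chr6:118587240-119196890, Cacna1d (ENSMUSG00000015968.18) at chr14:30039939-30491455 and Trpm5 (ENSMUSG00000009246.14) at chr7:143069153-143094642. The KATP subunits are neighbours: Kcnj11 (ENSMUSG00000096146.2, chr7:46093953-46100764) and Abcc8 (ENSMUSG00000040136.10, chr7:46104523-46180033) are 3758 bases apart, with 0 other genes of the table between them. Genes that overlap a member on either strand can share its reads, and whether the counting used strand is not stated in the sources used here. Abcc8 overlaps Gm45486 and Gm45487, whose median counts were 488.5 and 239 in titled control libraries, Cacna1c overlaps Dcp1b (846), Cacna1d overlaps Dcp1a (1775.5) and Chdh (510.5), and Trpm5 overlaps Tssc4 (1839). The count of Tssc4 was larger than that of Trpm5 itself, which was 199 to 663 in the same libraries.

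Start regions of 300 bases (250 before and 50 after the start) were held by the RefSeq table (GRCm38.p6) for 6 of the 8 genes, Kcnj11 and Abcc8 not being among them. The windows of G6pc2 and Mlxipl are shown because these were the 2 of the 6 genes with the largest genotype differences, and those of Cacna1d and Trpm5 because theirs were the smallest on ND. Each window belongs to the annotated start nearest the gene's 5′ end and reads 5′ to 3′ on the gene's strand, at chr2:69210823-69211122 (plus strand) for G6pc2, chr5:135089640-135089939 (plus) for Mlxipl, chr14:30491107-30491406 (minus) for Cacna1d and chr7:143094593-143094892 (minus) for Trpm5. Capitals mark E-boxes (CANNTG), the sequence that basic helix-loop-helix factors such as Neurog3 and, as CACGTG, ChREBP with its partner are known to bind.
G6pc2: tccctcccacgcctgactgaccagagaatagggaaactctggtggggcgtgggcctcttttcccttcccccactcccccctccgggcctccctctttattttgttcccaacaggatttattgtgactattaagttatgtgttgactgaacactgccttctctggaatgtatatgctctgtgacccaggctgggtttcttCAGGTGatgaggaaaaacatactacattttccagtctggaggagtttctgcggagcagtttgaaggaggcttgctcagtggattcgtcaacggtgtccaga
Mlxipl: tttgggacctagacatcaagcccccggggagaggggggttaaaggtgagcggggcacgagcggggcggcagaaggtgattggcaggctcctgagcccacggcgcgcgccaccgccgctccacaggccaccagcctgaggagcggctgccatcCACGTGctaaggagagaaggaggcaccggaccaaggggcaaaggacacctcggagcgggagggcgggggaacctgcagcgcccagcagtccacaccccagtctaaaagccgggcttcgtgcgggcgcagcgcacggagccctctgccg
Cacna1d: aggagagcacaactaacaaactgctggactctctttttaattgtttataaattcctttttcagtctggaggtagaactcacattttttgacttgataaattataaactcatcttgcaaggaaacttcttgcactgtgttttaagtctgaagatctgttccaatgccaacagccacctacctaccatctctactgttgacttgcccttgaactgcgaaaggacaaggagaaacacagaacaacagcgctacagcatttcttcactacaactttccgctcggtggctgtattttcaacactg
Trpm5: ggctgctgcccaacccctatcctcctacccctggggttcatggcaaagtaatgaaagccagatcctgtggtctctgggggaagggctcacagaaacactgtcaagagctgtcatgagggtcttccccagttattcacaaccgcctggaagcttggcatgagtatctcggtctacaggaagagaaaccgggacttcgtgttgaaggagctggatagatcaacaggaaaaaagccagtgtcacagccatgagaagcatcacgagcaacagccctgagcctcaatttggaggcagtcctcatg
G6pc2 and Mlxipl each hold 1 E-box, 51 and 98 bases before the start, and that of Mlxipl reads CACGTG. The windows of Cacna1d and Trpm5 hold 0, and those not shown hold 3 (Cacna1c, log2 difference on ND -2.93) and 1 (Slc2a2, -1.72). A link between E-boxes and the size of the difference was not tested. Over both strands, CANNTG occurred in 4 of the 6 genes' windows and in 72.3% of the 32851 windows of the table, and CACGTG, which is one form of it, in 1 of 6 and in 7.15%. CAGATG, another form, and TAATTA, a core of homeodomain sites, occurred in 0 of these 6 and in 17.2% and 5.29% of all windows. Further starts inside G6pc2, Mlxipl, Cacna1c and Cacna1d, not counted in these 6, do hold such letters. That of G6pc2 holds 4 E-boxes, 2 of them CAGATG, that of Mlxipl 2 E-boxes and 1 TAATTA, those of Cacna1c 2 and 1 E-boxes, with 1 CAGATG each, and that of Cacna1d (chr14:30353437-30353736) 1 E-box.

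Per length, Abcc8 led and Trpm5 came last in the titled control cells, on each diet by the group means. In FPKM (deposited fragments per kilobase, scaled to library size) on ND, Abcc8 was at 79.0 ± 4.29 (SD, n = 3), followed by Kcnj11 at 40.6 ± 3.20 and Mlxipl at 37.6 ± 3.33, which did not differ beyond their spread. Slc2a2 at 16.99 ± 8.57 and G6pc2 at 13.7 ± 8.90 overlapped each other. Cacna1d followed at 6.80 ± 1.45, and Cacna1c at 2.94 ± 0.344 and Trpm5 at 2.51 ± 0.632 overlapped at the low end. In titled mutant cells on ND (n = 4) the order was another: Slc2a2 stood first at 4.03 ± 2.28 FPKM and Kcnj11 next at 3.77 ± 1.05, Cacna1d was at 2.37 ± 1.36, Abcc8 came only after these at 1.89 ± 0.660, and Mlxipl was at 1.304 ± 0.963. Trpm5 was at 1.02 ± 0.183 and Cacna1c at 0.285 ± 0.126, and G6pc2 was listed at 0 in 3 of the 4 libraries.

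Against titled control cells, titled mutant cells had less RNA of all 8 genes on ND, from Trpm5 with a log2 difference of -0.75 to G6pc2, which was nearly undetected. Fits were edgeR's quasi-likelihood test over all 6 groups, with p-values adjusted by Benjamini-Hochberg over all 23630 genes and a threshold of 0.05. The test called 8 of 8 lower on ND, where it called 13.3% of all genes lower and 13.7% higher. On HFD it called 5 of 8 lower (Slc2a2, Cacna1d and Trpm5 missed the threshold), against 5.64% of all genes lower and 0.14% higher. On LPD it called 7 of 8 lower (Cacna1d missed), against 10.4% lower and 5.22% higher. The highest titled mutant library lay below the lowest titled control library for 7 of 8 genes on ND, 8 of 8 on HFD and 7 of 8 on LPD, while 14.9%, 18.2% and 14.6% of all genes did so. The median log2 difference of the 8 genes was -2.94 on ND, -2.32 on HFD and -2.54 on LPD, and that of all genes tested was 0.01, -0.01 and 0.02. In sorted populations, fewer cells of a type and less RNA per cell cannot be told apart.

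**Figure D1:**
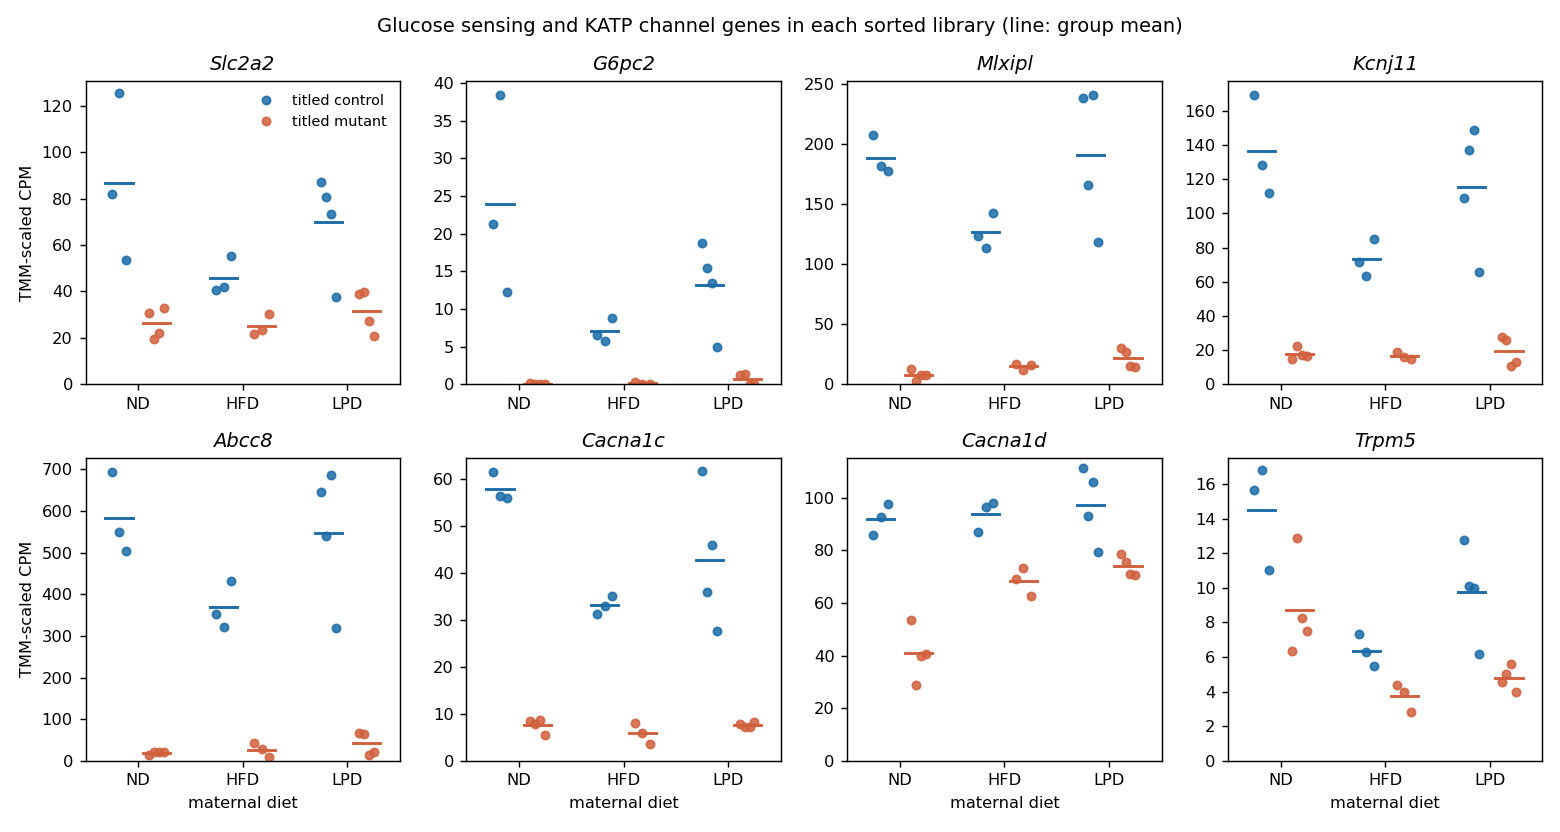
Level of each of the 8 genes in every sorted pancreatic library, in TMM-scaled CPM on a linear axis from 0 (a scale for each gene), by maternal diet; each point is 1 library and each line the group mean, blue for titled control and orange for titled mutant. Abcc8 is at 319 to 694 in titled control and at 9.38 to 67.9 in titled mutant libraries, while Trpm5 and Slc2a2 overlap between the titles on ND and on LPD respectively.

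Cell markers moved with these differences. The summed level of 8 hormone genes (Ins1, Ins2, Gcg, Sst, Ppy, Ghrl, Pyy, Iapp) was 1402 to 6795 CPM, scaled by TMM (trimmed mean of M-values), in titled control libraries and 1.29 to 308 in titled mutant libraries. Of 10 genes of endocrine identity, such as Neurod1 and Chga, 10 were called lower on each diet. Of 10 acinar genes, 10 were called higher on ND and on LPD and 0 on HFD, with summed levels of 6965 to 8899 CPM in titled control and 13878 to 25583 in titled mutant libraries on ND. Among 10 trunk and duct genes, 6 were called higher and 1 lower on ND, 0 and 1 on HFD, and 2 and 1 on LPD. The part of these cell types in the members' differences was not tested. Mesenchyme and smooth muscle genes had 2 of 10 called higher on ND and 0 on the other diets, nerve and glia genes 3 of 10 lower on each diet, and 0 of 10 hepatocyte, 0 of 10 endothelial and 0 of 9 tested blood genes were called in any of the 3 comparisons. Tuft cell genes (8 of 10 tested), which share Trpm5 with that cell type, summed to 14.5 to 31.03 CPM over all groups, with Gnat3 and Il25 at 0 in many libraries, and had 1 called higher on ND and 1 lower on each other diet.

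A few libraries stood apart. Totals ran from 17922240 to 44688814 counts. In the compared groups, only ND libraries had a number of 25 or above in their library name. These were titled control ND 2 and 3 and titled mutant ND 2, 3 and 4. Within a title, a difference between ND and another diet therefore cannot be cleanly told apart from one of library number. The titled control library ND 2 and the titled mutant libraries ND 2 and ND 3 had 72.2 to 79.4% duplicate reads, with 32.7 to 66.9% of their counts on the noncoding RNA Gm26917, against 37.7 to 65.5% and 9.21 to 18.7% in the other 18 libraries. The titled mutant libraries HFD 1, LPD 1 and LPD 2 held the most hormone RNA under that title, with 1076, 3250 and 2800 counts of Ins2 against 0 to 52 in the other 8. These 3 are called the hormone-rich mutant libraries below, a set named from earlier results of these data.

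Uptake and phosphorylation came first in the pathway. Slc2a2, the glucose transporter, had 82.0, 125 and 53.4 CPM in the titled control ND libraries 2, 3 and 4, and 30.8, 19.4, 22.1 and 32.9 in titled mutant ND libraries 1 to 4. On HFD the values were 40.7, 41.9 and 55.4 against 21.7, 23.2 and 30.1, and on LPD 87.3, 80.7, 73.3 and 37.7 against 39.0, 39.6, 27.1 and 20.7. The titles did not overlap on ND and HFD, and on LPD the titled control library 4 lay below titled mutant libraries 1 and 2. The log2 difference was -1.72 on ND (SE 0.29, adjusted p = 0.000192) and -1.14 on LPD (SE 0.27, adjusted p = 0.00607). On HFD it was -0.88 with a 95% interval of -1.50 to -0.26 and an adjusted p of 0.141, so it was not called. The LPD call was lost in a limma test on log2(FPKM + 0.1), with an adjusted p of 0.0798.

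G6pc2, the islet glucose-6-phosphatase, came nearest to an absence. Titled control libraries had 21.3, 38.4 and 12.2 CPM on ND, 6.55, 5.74 and 8.79 on HFD, and 18.8, 15.4, 13.5 and 4.95 on LPD. In titled mutant cells it had 3 counts in ND 1 and 0 in ND 2, 3 and 4; 12, 0 and 1 counts in HFD 1, 2 and 3; and 40, 36, 0 and 0 in LPD 1 to 4. A count of 0 allows up to 3 counts, which in the 6 libraries at 0 is 0.0943 to 0.134 CPM of the total. The control values above are TMM-scaled, which is another scale. In titled mutant ND 2, Kcnj11 was at 8.59 CPM of the total and at 22.5 CPM when TMM-scaled, so the floor there is higher on that scale. Nearly all the counts in titled mutant cells thus came from HFD 1, LPD 1 and LPD 2, the hormone-rich libraries. On ND the summed, scaled counts were 784 times higher in titled control cells, with a counting interval of 268 to 3803 at 95%, from 2402 counts against 3. The ratio was 57.6 on HFD (33.5 to 109) and 19.1 on LPD (15.2 to 24.4), and these intervals cover counting error only. Without the hormone-rich libraries, the ratio on HFD was 436 (78.0 to 17235), from 706 counts against 1. On LPD the gene was then at least 234-fold higher in titled control cells, with 0 counts in titled mutant cells put at a floor of 3 over the group. Without titled mutant ND 1, the ND value was at least 547-fold, with the same floor. The gene was called lower on ND (adjusted p = 2.02e-05), HFD (adjusted p = 0.00186) and LPD (adjusted p = 0.000943).

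Mlxipl, which encodes ChREBP, had 207, 181 and 177 CPM in titled control ND libraries against 12.3, 2.697, 7.82 and 7.67 in titled mutant ones. It had 123, 113 and 143 against 16.6, 11.9 and 15.8 on HFD, and 238, 166, 240 and 118 against 29.9, 26.5, 15.1 and 14.4 on LPD. Every titled mutant library lay below every titled control library, on each diet and across diets. The log2 difference was -4.58 on ND (SE 0.36, adjusted p = 5.52e-08), -3.09 on HFD (SE 0.37, adjusted p = 2.13e-05) and -3.15 on LPD (SE 0.32, adjusted p = 1.43e-06). Its window above carries the CACGTG form of the E-box.

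The KATP channel subunits fell to different extents. Kcnj11, the pore, had 170, 128 and 112 CPM in titled control and 14.7, 22.5, 16.99 and 16.7 in titled mutant cells on ND. It had 71.4, 63.6 and 85.3 against 18.7, 16.04 and 14.9 on HFD, and 109, 137, 149 and 66.0 against 27.7, 25.6, 10.8 and 12.9 on LPD. Groups did not overlap, and the log2 difference was -2.96 on ND (SE 0.30), -2.15 on HFD (SE 0.32) and -2.58 on LPD (SE 0.28), with adjusted p-values of 4.51e-07, 0.000142 and 1.98e-06.

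Abcc8, the sulfonylurea receptor, had 694, 551 and 505 CPM in titled control and 12.99, 21.8, 21.96 and 20.8 in titled mutant cells on ND. On HFD the values were 353, 322 and 432 against 42.3, 27.5 and 9.38, and on LPD 646, 540, 686 and 319 against 67.9, 64.0, 15.1 and 20.7. Groups did not overlap, and within titled mutant cells the hormone-rich libraries (HFD 1, LPD 1, LPD 2) were the highest of their diets. The log2 difference was -4.91 on ND (SE 0.53), -3.80 on HFD (SE 0.56) and -3.71 on LPD (SE 0.48), with adjusted p-values of 2.18e-06, 0.000213 and 2.71e-05.

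Leaving out these 3 libraries moved, beside G6pc2, the LPD fold differences of 3 genes by more than 1.5 times, on the log2 scale to -4.99 for Abcc8, to -3.34 for Kcnj11 and to -3.75 for Mlxipl. On HFD, library 3 deviated alike under both titles, while libraries 1 and 2 were not matched by number, so a pairing is uncertain. A fit of the HFD libraries alone with a replicate block called 7 of 8 genes lower. It called 6594 genes in all, against 1366 in the main fit. In the fit with the block, Slc2a2 (-0.92), Cacna1d (-0.50) and Trpm5 (-0.83) passed, with adjusted p-values of 8.77e-07, 9.58e-05 and 0.00143. Abcc8 (-4.002) did not, with an adjusted p of 0.0812. The block was chosen after the correlations of these same libraries were seen, so its p-values are no independent support for these calls. A fit of the HFD libraries alone without the block called 8 of 8, and 3590 genes in all. The rise in members called thus went with a rise over all genes.

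Per base of gene model, counts of Abcc8 exceeded those of Kcnj11 in titled control cells and mostly did not in titled mutant cells. This ratio and the one of the L-type subunits below were taken up after the values were seen. Their p-values, adjusted or not, do not cover that choice and only describe how far the titles separated. The Abcc8 to Kcnj11 ratio in titled control libraries on ND, HFD and LPD was 1.86 to 2.04, 2.25 to 2.30 and 1.79 to 2.69, and it was 0.401 to 0.587, 0.287 to 1.02 and 0.634 to 1.13 in titled mutant libraries. Averaged over diets, log2 of the ratio differed by -1.73 between the titles, with a two-sided exact permutation p of 2.04e-05 when titles were exchanged within diets, which is the smallest that the 49000 arrangements can give, and 8.16e-05 after Benjamini-Hochberg adjustment over 8 such tests. Within diets the exact permutation p was 0.0286 on ND and on LPD and 0.1 on HFD, where 3 against 3 libraries cannot go below 0.1. All 11 titled mutant libraries lay below all 10 titled control libraries, and those above 1 were HFD 1, LPD 1 and LPD 2, the hormone-rich libraries. A difference in a ratio shows that the subunits changed unequally, and not that one was stable.

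**Figure D2:**
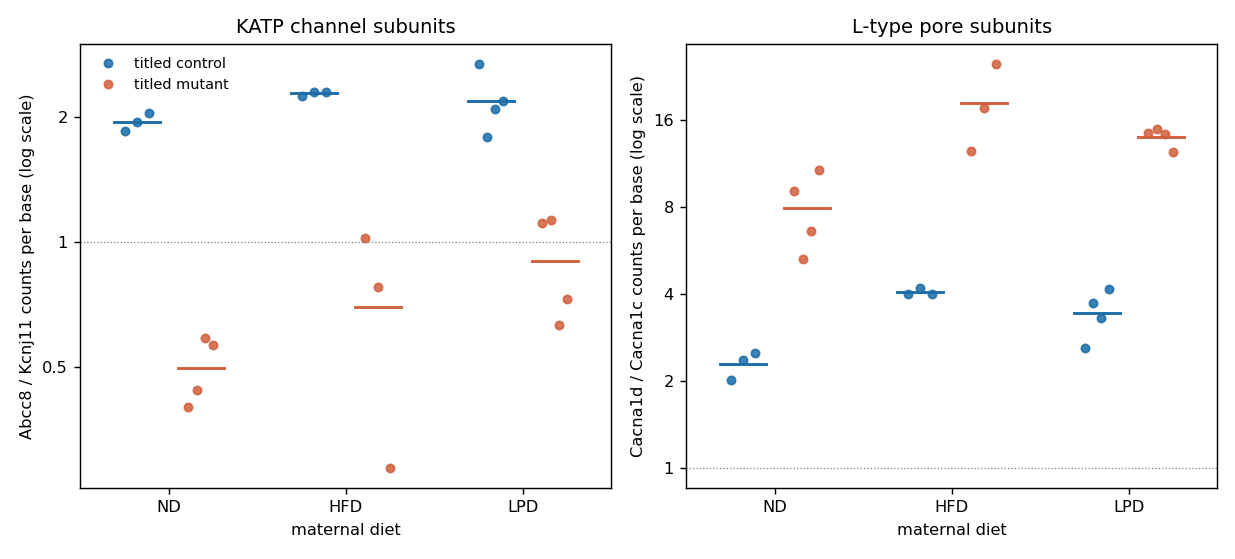
Ratio of Abcc8 to Kcnj11 (left) and of Cacna1d to Cacna1c (right), in counts per base of gene model on log axes, for each library by maternal diet; lines are arithmetic group means and the dotted line marks equal values. The left ratio is at 1.79 or above in titled control and at 1.13 or below in titled mutant libraries, and the right one is at 4.20 or below and at 5.29 or above.

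The L-type calcium channel subunits differed between the titles to unequal extents as well. Cacna1c, the pore subunit Cav1.2, had 61.5, 56.5 and 56.0 CPM in titled control and 8.48, 7.86, 8.68 and 5.46 in titled mutant cells on ND. On HFD it had 31.2, 33.1 and 35.2 against 7.96, 5.98 and 3.59, and on LPD 61.7, 35.9, 46.1 and 27.6 against 7.81, 7.26, 7.15 and 8.17. The titled mutant values stayed within 3.59 to 8.68 on all 3 diets. The log2 difference was -2.93 on ND (SE 0.24, adjusted p = 6.7e-08), -2.50 on HFD (SE 0.27, adjusted p = 6.8e-06) and -2.49 on LPD (SE 0.23, adjusted p = 4.7e-07).

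Cacna1d, the pore subunit Cav1.3, had 86.0, 92.7 and 97.4 CPM in titled control and 53.7, 28.9, 39.9 and 40.8 in titled mutant cells on ND. The HFD values were 86.9, 96.6 and 98.0 against 69.0, 73.2 and 62.6, and the LPD values 111, 92.9, 106 and 79.5 against 78.4, 75.6, 71.0 and 70.8. No titled mutant library reached the lowest titled control library, though on LPD the gap was from 78.4 to 79.5. The log2 difference was -1.17 on ND (SE 0.15, adjusted p = 9.63e-06). It was -0.46 on HFD (95% interval -0.78 to -0.14, adjusted p = 0.136) and -0.40 on LPD (-0.67 to -0.12, adjusted p = 0.0626), neither called. On LPD it was called with DESeq2's size factors (adjusted p = 0.0321), by DESeq2 (adjusted p = 0.0181), in a fit of the LPD libraries alone (0.0194) and when the ND libraries with over 70% duplicates were left out (0.00523). Without these ND libraries it was called on HFD too (0.0171). It was also called on LPD without any 1 of titled control LPD 4 or ND 4 and titled mutant ND 1, 2 or 3 (adjusted p of 0.0103 to 0.0442), and on HFD without titled mutant ND 2 (0.01398).

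The Cacna1d to Cacna1c ratio per base in titled control libraries on ND, HFD and LPD was 2.01 to 2.503, 4.01 to 4.20 and 2.59 to 4.15, and it was 5.29 to 10.8, 12.5 to 25.1 and 12.5 to 14.99 in titled mutant libraries. Averaged over diets, its log2 was higher by 1.97 in titled mutant cells, with the same exact permutation p of 2.04e-05 and adjusted value of 8.16e-05. All 11 titled mutant libraries lay above all 10 titled control libraries, so the 2 subunits changed unequally.

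Trpm5, the calcium-activated cation channel, had 15.7, 16.8 and 11.02 CPM in titled control and 6.35, 12.9, 8.23 and 7.52 in titled mutant cells on ND, where titled mutant library 2 lay above titled control library 4. It had 7.36, 6.32 and 5.46 against 4.40, 4.0001 and 2.80 on HFD, and 12.8, 10.1, 9.98 and 6.18 against 4.57, 5.03, 5.61 and 3.99 on LPD, with no overlap on these diets. The log2 difference was -0.75 on ND (SE 0.26, adjusted p = 0.0375), -0.77 on HFD (SE 0.28, adjusted p = 0.159, not called) and -1.02 on LPD (SE 0.25, adjusted p = 0.00586). The ND call was lost without titled control ND 2 or ND 3 (adjusted p of 0.101 and 0.153) and without titled mutant ND 1, 3 or 4 (0.0937, 0.0601 and 0.0810). It was also lost without the filter on low counts (0.0520) and in a fit of the ND libraries alone (0.147). The LPD call was lost without the hormone-rich mutant libraries (adjusted p = 0.0602), and on HFD the gene was called without titled mutant ND 2 (adjusted p = 0.0419).

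**Figure D3:**
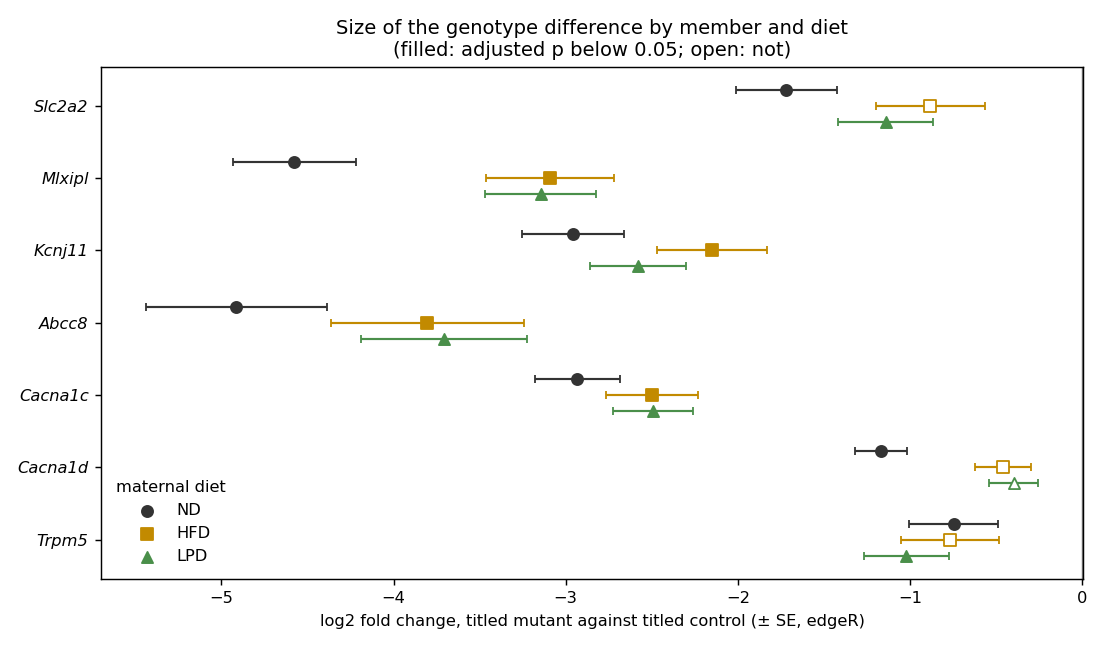
Log2 fold change of titled mutant against titled control cells for 7 of the 8 genes on each maternal diet, with bars of 1 standard error from the edgeR fit; filled symbols passed an adjusted p of 0.05 and open ones did not. G6pc2 is left out because its fitted value rests on 3 counts in titled mutant cells on ND. Abcc8 and Mlxipl lie farthest from 0 and Cacna1d and Trpm5 nearest.

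Whether the genotype difference itself changed with diet was tested as an interaction. It passed for 0 of 8 members and 0 of 23630 genes in each of the 3 pairs of diets by edgeR. At an unadjusted p under 0.05, 2 members stood out for HFD against ND, 3 for LPD against ND and 0 for HFD against LPD, and DESeq2 called 0 members in each. Of all genes, 1677, 1383 and 250 had an unadjusted p under 0.05 in these 3 pairs, and DESeq2 called 6 higher and 5 lower in the first, 0 in the next and 4 lower in the last. For Mlxipl the log2 difference was smaller in size by 1.49 on HFD than on ND (95% interval 0.55 to 2.42, adjusted p = 0.639) and by 1.43 on LPD than on ND (0.56 to 2.30, adjusted p = 0.832). For Cacna1d the corresponding values were 0.71 (0.27 to 1.15, adjusted p = 0.639) and 0.77 (0.36 to 1.18, adjusted p = 0.832). Genotype comparisons on the 3 diets share no libraries, but each uses the spread of all 21.

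Within titled control cells, HFD left 7 of 8 genes at a lower mean than ND, but only Trpm5 was called, at 6.38 ± 0.953 (SD, n = 3) against 14.5 ± 3.08 CPM (n = 3), a log2 difference of -1.19 (SE 0.28, adjusted p = 0.0226). Of all genes, 0.808% were called lower and 3.1% higher in this comparison. The HFD libraries lay wholly below the ND libraries for 6 of 8 genes, against 14.3% of all genes. Means were 369 against 583 CPM for Abcc8 (log2 difference -0.66, 95% interval -1.64 to 0.33), 73.4 against 137 for Kcnj11 (-0.90, -1.50 to -0.30) and 33.2 against 58.0 for Cacna1c (-0.81, -1.30 to -0.32). Cacna1d did not follow, with 93.8 ± 6.02 on HFD and 92.0 ± 5.75 on ND (adjusted p = 0.955). The Trpm5 call was lost without titled control HFD 1, 2 or 3 (adjusted p of 0.0667, 0.0828 and 0.0864) without titled control ND 2 or 3 (0.116 and 0.0884) and without the hormone-rich mutant libraries (0.0541).

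The count of members called in this comparison depended on the fit. DESeq2 called 4 (Slc2a2, Kcnj11, Cacna1c and Trpm5), a fit of the compared libraries alone 6, and limma on FPKM 0. The shares of all genes given above are those of the main fit, so these counts have no such share beside them. Acinar genes moved with it: 10 of 10 were called higher on HFD than on ND in titled control cells, with summed levels of 23837 to 29434 against 6965 to 8899 CPM, and the hormone sum was 1517 to 2764 against 2445 to 6795 CPM. The part of cell makeup was not tested.

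On LPD against ND in titled control cells edgeR called 0 of 8 members and 0 of 23630 genes. At an unadjusted p under 0.05 there was 1 member and 1553 genes, and DESeq2 called 0 members and 7 genes, 5 higher and 2 lower. Mlxipl stood at 190 ± 59.3 (SD, n = 4) against 188 ± 16.3 CPM (n = 3), with a 95% interval of the log2 difference from -0.61 to 0.64. In the LPD group, library 4 was lowest for all 8 genes, from 319 against 540 to 686 for Abcc8 to 79.5 against 92.9 to 111 for Cacna1d. Between HFD and LPD, edgeR called 0 members and 0 genes under either title. At an unadjusted p under 0.05 there were 2 members and 1463 genes in titled control and 1 member and 632 genes in titled mutant cells, and DESeq2 called 0 members in both, with 14 genes higher and 8 lower in titled control cells and 0 and 1 in titled mutant cells.

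Within titled mutant cells, Cacna1d was higher on HFD than on ND (68.3 ± 5.35 against 40.8 ± 10.2 CPM, n = 3 and 4), with a log2 difference of 0.74 (SE 0.15, adjusted p = 0.0168), where 0.961% of all genes were called higher. It was higher on LPD too, at 73.9 ± 3.73 (n = 4), with a log2 difference of 0.85 (SE 0.14, adjusted p = 0.0171), where 0.41% were called higher. Mlxipl was higher on LPD, at 21.5 ± 7.90 against 7.63 ± 3.94 CPM (log2 difference 1.45, SE 0.31, adjusted p = 0.0371). Trpm5 was lower on HFD, at 3.73 ± 0.831 against 8.75 ± 2.87 CPM (log2 difference -1.21, SE 0.27, adjusted p = 0.0249), where 1.9% of all genes were called lower. The comparisons with ND share the ND libraries, so the Cacna1d values are not independent of each other.

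Marker sums in titled mutant cells differed between diets, though few single markers passed the test. The hormone sum in titled mutant libraries was 1.29 to 8.55 CPM on ND, up to 74.9 on HFD and up to 308 on LPD, and the sum of the 10 endocrine identity genes was at 53.8 to 84.6, 50.3 to 104 and 45.5 to 238 CPM. Acinar genes summed to 13878 to 25583 CPM on ND, and to 34650 to 36682 and 25877 to 34565 CPM on HFD and LPD. Mesenchyme and smooth muscle genes were at 1051 to 9999 CPM on ND, at 279.9 to 835 on HFD and at 412 to 1148 on LPD. Hepatocyte genes were at 328 to 632 CPM on ND, against 202 to 223 on HFD, and on LPD they were at 235 to 917. For HFD against ND, 1 acinar and 1 nerve or glia gene were called higher and 1 mesenchyme gene lower, and for LPD against ND 1 nerve or glia gene lower. The part of these cells in the 4 calls was not tested.

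None of these 4 calls held in every alternative. Without the ND libraries of over 70% duplicates the adjusted p was 0.0640 for Cacna1d on HFD, 0.106 for Cacna1d on LPD, 0.243 for Mlxipl and 0.102 for Trpm5. Without the hormone-rich mutant libraries it was 0.116 for Cacna1d and 0.111 for Trpm5 on HFD, and 0.431 for both Cacna1d and Mlxipl on LPD. Leaving out one titled mutant HFD library (1, 2 or 3) gave 0.0751, 0.0932 and 0.0678 for Cacna1d and 0.0751, 0.0964 and 0.144 for Trpm5. On LPD the Cacna1d call was lost without titled mutant LPD 1 (0.0767), LPD 2 (0.0726) or ND 3 (0.0541). The Mlxipl call was lost without titled mutant LPD 1 (0.136), LPD 2 (0.126), LPD 3 (0.0578), ND 2 (0.0685), ND 3 (0.0780), HFD 1 (0.0546) or HFD 2 (0.0544), and without titled control HFD 1 (0.0566) or HFD 2 (0.0502).

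Other genes of the pathway were taken from 5 lists chosen by function. Of all genes, 13.3% were called lower and 13.7% higher on ND, 5.64% and 0.14% on HFD, and 10.4% and 5.22% on LPD. Voltage-gated calcium channel subunits other than Cacna1c and Cacna1d (19 of 24 tested) had 12 called lower on ND, 10 on HFD and 12 on LPD, and 0 higher on any diet. The shares lower were 63.2%, 52.6% and 63.2%. The T-type pore Cacna1h fell from 263 ± 66.2 to 33.5 ± 7.39 CPM on ND (log2 difference -2.98, adjusted p = 1.03e-07), and the auxiliary subunit Cacna2d1 from 108 ± 9.14 to 6.82 ± 1.76 (log2 difference -4.01, adjusted p = 1.46e-07). Of 25 other potassium channel genes, 12 were called lower and 3 higher on ND, 9 and 0 on HFD, and 12 and 1 on LPD. That is 48%, 36% and 48% lower, and 12%, 0% and 4% higher. Kcnk16, an islet two-pore channel, fell from 278 ± 45.5 to 58.0 ± 6.65 CPM, and Kcnb2, a delayed rectifier, from 34.4 ± 5.11 to 0.653 ± 0.670. Kcnq1 and Kcnk1 were called higher on ND, by log2 differences of 0.94 and 1.92. Kcnk1 varied widely there, at 115 ± 111 CPM in titled mutant against 30.3 ± 10.8 CPM in titled control cells. Neither was called on HFD, and on LPD Kcnq1 was (adjusted p = 0.00337) and Kcnk1 was not (adjusted p = 0.494).

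Among 30 genes of glucose metabolism, 10 were called higher on ND (33.3%, against 13.7% of all genes) and 7 on LPD (23.3%, against 5.22%), and 0 on HFD. Those called lower were 4 on ND, 1 on HFD and 2 on LPD, or 13.3%, 3.33% and 6.67%, which is close to or below the share of all genes (13.3%, 5.64% and 10.4%). The list had a median log2 difference of 0.32 on ND against 0.01 for all genes. Gpd2, the mitochondrial glycerol phosphate dehydrogenase, had a log2 difference of -1.60 on ND (adjusted p = 1.86e-05). Ldha, lactate dehydrogenase A, rose from 256 ± 39.9 to 599 ± 63.2 CPM (log2 difference 1.23, adjusted p = 9.65e-05) and Slc16a1, a lactate and pyruvate carrier, from 17.1 ± 2.71 to 37.9 ± 9.03. Both are known as genes that mature beta cells keep low.

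Among partners and known targets of ChREBP (18 of 19 tested), 5 were called higher and 5 lower on ND, 0 and 2 on HFD, and 2 and 4 on LPD. The shares higher were 27.8%, 0% and 11.1%, against 13.7%, 0.14% and 5.22% of all genes. Those lower were 27.8%, 11.1% and 22.2%, against 13.3%, 5.64% and 10.4%. Tkt, a transketolase, and Acacb, an acetyl-CoA carboxylase, were higher on ND by log2 differences of 0.84 and 1.41. Klf10, a zinc finger factor, and Acly, the ATP citrate lyase, were lower, with log2 differences of -1.15 and -1.40. TRP channels other than Trpm5 (12 of 14 tested) had 1 called higher and 4 lower on ND, 0 and 2 on HFD, and 1 and 3 on LPD. That is 8.33%, 0% and 8.33% higher, and 33.3%, 16.7% and 25% lower. Trpm4, the other calcium-activated cation channel of the family, was higher in titled mutant cells on ND, at 93.7 ± 28.6 against 39.3 ± 5.87 CPM (log2 difference 1.25, adjusted p = 0.000204), while Trpm3 and Trpc1 were lower.

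Some genes followed a member closely over the 21 libraries. Likeness was the root mean square difference of log2(CPM + 1), each gene centred on its own mean, among 13690 named genes. For Kcnj11 the nearest were Pnmal2 (0.20), Abcb9 (0.21) and Unc5a (0.21), against a median of 1.39 over all candidates. G6pc2 was close to Lrp11 (0.32) and Ppp1r1a (0.32), Mlxipl to Vdr (0.30), Scg5 (0.35) and Stxbp5l (0.38), and Abcc8 to March4 (0.35), Pappa2 (0.36) and Kcnma1 (0.36). Those of Cacna1c were Adgrb3 (0.24), Sdk1 (0.25) and Spsb1 (0.26), and of Slc2a2 Galns (0.25), Syt14 (0.25) and Ctso (0.25). Cacna1d was nearest to Mapk8ip3 (0.14), Atp8b1 (0.15) and Fam135a (0.17), and Trpm5 to Mfhas1 (0.22), Zfp90 (0.23) and Arrdc4 (0.23). Within the 8, Kcnj11 and Cacna1c were the most alike (0.39), Kcnj11 and its partner Abcc8 were at 0.97, and Trpm5 and Abcc8 the least alike (1.92). These values describe the same 21 libraries, so they share the difference between the titles.

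The hypothalamic libraries, 1 of each title, gave values with no test. Their duplicate reads were 77.5% in the control and 82.3% in the mutant library. The Poisson intervals take each count as independent, so with such duplication they may be too narrow. Cacna1c was at 134 CPM of the total (exact Poisson interval 129 to 138) in the control and 112 (108 to 116) in the mutant library, above the highest titled control pancreatic library at 82.9. Cacna1d was at 66.2 and 71.0, which is inside the range of the titled mutant pancreas (11.001 to 80.2). The low end of that range is titled mutant ND 2, which had 66.9% of its counts on Gm26917. When TMM-scaled, Cacna1d was at 28.9 CPM in that library. The other members were low: Kcnj11 was at 6.03 and 11.1, Abcc8 at 9.03 and 3.57, Mlxipl at 2.36 and 4.88 and Trpm5 at 2.96 and 1.57. Slc2a2 had 3 counts in the control and 0 in the mutant library, and G6pc2 had 0 in both, which allows up to 0.107 and 0.1002 CPM of the total. Per base, the hypothalamic ratio of Cacna1d to Cacna1c was 0.713 and 0.915, below every pancreatic library of the 6 groups.

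**Figure D4:**
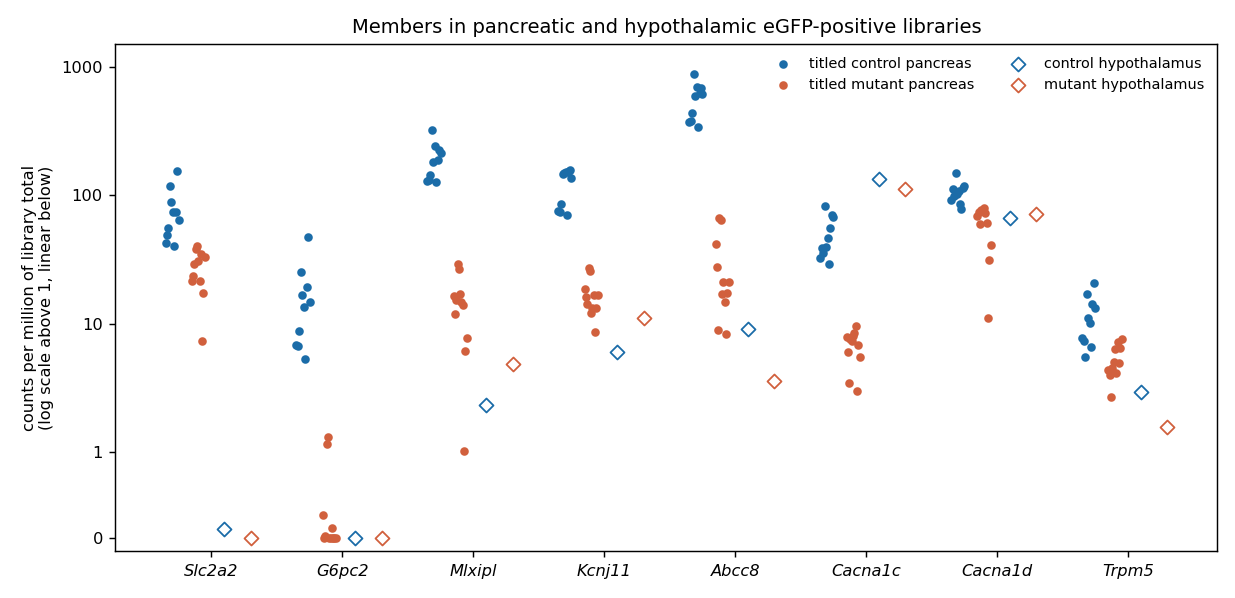
CPM of the library total for each of the 8 genes in titled control (10) and titled mutant (11) pancreatic libraries (filled circles) and in the 2 hypothalamic libraries (open diamonds), on an axis that is logarithmic above 1 and linear below. Cacna1c is higher in both hypothalamic libraries, at 134 and 112, than in any pancreatic library, and G6pc2 is at 0 in both.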

How the data were processed

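RNA of sorted eGFP-positive cells was sequenced in 24 libraries, of which 21 form the 6 groups. A library of mixed genotype (titled control ND 1) was left out, and the 2 hypothalamic libraries gave values only. Per the submitters' processing notes, reads were handled with cutadapt 2.10, STAR 2.7.8a and featureCounts 2.0.2 on GRCm38.p6. The authors deposited raw counts per gene and FPKM for 40173 genes, and the deposited FPKM equals counts per kilobase of gene model, scaled to the library's total count. The authors also deposited a table of library quality with the percent of duplicate reads. A line of totals with no gene name was left out of library sizes and tests.

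Counts were analysed with edgeR 4.0.16 in R 4.3.3: genes passing filterByExpr (23630), TMM scaling, one robust quasi-likelihood fit of 6 group means, and Benjamini-Hochberg adjustment in each of 12 comparisons. The standard error is the log2 fold change divided by the square root of F. The script was tested on simulated data first. Alternatives were DESeq2 1.42.0, limma 3.58.1 on log2(FPKM + 1) and log2(FPKM + 0.1), other scalings and filters, left-out libraries and a replicate block. Exact permutation tests were run with scipy 1.17.1. Where nothing in the labels says that libraries came from separate litters, p-values measure only the spread between these libraries, which may be technical.

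The numbers in the titles were checked for pairing by the correlation, within a diet, of same-numbered libraries' deviations from their group means. It was over 0.1 in 6 of 10 pairs, and in all 3 HFD pairs (0.28, 0.49, 0.64), but not in all ND (0.58, -0.07, -0.06) or LPD pairs (-0.33, 0.56, -0.54, 0.46). Unlike-numbered HFD libraries 1 and 2 correlated as well (control 2 with mutant 1 at 0.31, control 1 with mutant 2 at 0.26). HFD library 3 of either title against library 1 or 2 of the other was at -0.55 to -0.37. The values thus set library 3 apart under both titles and do not match libraries 1 and 2 by number. Only the HFD numbers were taken to pair libraries, from the data and not from the labels, so that pairing is uncertain.

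The 8 genes, the 5 pathway lists and the 10 marker lists were chosen with earlier results of these data known. Named by rule were all 8 genes, the 3 genes most like each, and up to 2 genes per pathway list and direction with the smallest adjusted p on ND. Some genes that this rule names are not reported here. The most alike replicates (titled mutant LPD 1 and 2) had a mean chi-square of 3.45 per gene, where sampling noise alone gives about 1. Their median was 1.01. Titled mutant HFD 1 and 2 came next, with a median of 1.43, followed by titled control HFD 1 and 2 at 2.54. The labels do not say whether such close pairs came from separate litters. All libraries were counted singly, so the number of independent libraries in titled mutant HFD and LPD may be overstated.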

Additional observations from a re-analysis of the deposited data

Results flagged for a closer look

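Within groups of 4 libraries, 2 of 30 sets of values had 1 library far from the others, where chance flags about 1 in 20. Both were titled mutant ND 1: G6pc2 was at 0.106 CPM there and at 0 in the other 3 libraries, which rests on 3 counts, and Abcc8 was at 12.99 CPM against 20.8 to 21.96 CPM in the others.

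Signal outside the compared groups was seen for Cacna1c in the hypothalamic libraries, at 134 CPM of the total in the control and 112 in the mutant, against at most 82.9 in any titled control pancreatic library. These hypothalamic libraries had 77.5% and 82.3% duplicate reads.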

How the results depend on the processing

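In the genotype comparisons the sign of all 8 members was the same under every alternative run, and the calls of G6pc2, Mlxipl, Kcnj11 and Cacna1c held in all of them. Without 1 library at a time, 7 to 8 members were called on both ND and LPD, and 5 to 7 on HFD. On HFD, 8 were called with the compared libraries alone. All genes called on ND were 6381, or 2279 with the compared libraries alone. On HFD they were 1366, or 841 with limma on log2(FPKM + 1), 3590 with the compared libraries alone, 836 with the mixed library as control, 2155 without the libraries of over 70% duplicates and 6594 with the HFD libraries alone and a replicate block. On LPD they were 3683, or 2375 and 2108 with limma on log2(FPKM + 1) and log2(FPKM + 0.1), 2106 with the mixed library, 6321 without the libraries of over 70% duplicates, 1804 without the hormone-rich mutant libraries and 5533 without titled mutant ND 2. limma on FPKM shifted the median of all genes to -0.23 (log2) on ND with a pseudocount of 1 and to -0.49 with 0.1, and its split on ND was 401 higher and 4282 lower against 3234 and 3147 in edgeR. The cause of these shifts was not tested.

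Diet calls within a title were few and moved with most settings. The counts of members below are given without the share of all genes called in each setting. For HFD against ND in titled control cells, 1 member was called. The count was 4 with DESeq2, 4 with a replicate block and 6 with the compared libraries alone. It was 0 with limma at both pseudocounts and without the hormone-rich mutant libraries. It was also 0 with a library number of 25 or above as a covariate, which marks ND libraries only. Without 1 library it was 0 to 2. In titled mutant cells, 2 were called for HFD against ND, 0 to 3 without 1 library. For LPD against ND it was 2, or 4 with DESeq2 and 1 without the filter on low counts, and 0 to 3 without 1 library. Both counts were 0 with limma at both pseudocounts, the compared libraries alone and the mixed library as control. Both were also 0 with no libraries of over 70% duplicates, no hormone-rich mutant libraries, and a library number of 25 or above as a covariate. They were 0 with the titled mutant HFD 1 and 2 summed for HFD (1 for LPD), and 0 for LPD with LPD 1 and 2 summed. Signs turned for a pair of values without the hormone-rich mutant libraries: Abcc8 for LPD against ND in titled mutant cells became -0.12, and the LPD minus ND genotype difference of G6pc2 became -2.23, a value that rests on 3 counts. The replicate block changed no other count of members. The subunit ratios kept sign and call, at -1.86 to -1.55 for Abcc8 to Kcnj11 and 1.89 to 2.05 for Cacna1d to Cacna1c without 1 library. The settings that sum libraries, the HFD fit with a block, those on the subunit ratios and the count ratios of G6pc2 without libraries were chosen after seeing the data. Depth limits G6pc2 in titled mutant cells and, with 92 to 241 counts there, Trpm5.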
